A study of Mus musculus with 12 samples.

Results

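Replication-dependent histone genes supply the H1, H2A, H2B, H3 and H4 proteins that package newly copied DNA. Dividing cells make most of their mRNA in S phase. These mRNAs as a rule end in a conserved stem-loop instead of a poly(A) tail: the stem-loop binding protein SLBP holds the stem-loop, the U7 small nuclear ribonucleoprotein directs the cut behind it, and the mRNA is broken down when DNA synthesis stops. Some of the genes also give polyadenylated mRNA in cells that have left the cell cycle, which are the majority in a postnatal spinal cord.

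The genes were those whose mouse symbol starts with Hist1h, Hist2h, Hist3h or Hist4h. There were 70 in the annotation, of which 68 were among the 49548 genes of the count tables; Hist1h2bm and Hist1h2bh were not analysed here. With a filter of more than 1 CPM (library-scaled counts) in at least 3 libraries, 47 of the 68 were tested, among 15942 genes in all. The 21 others had a mean of at most 0.655 CPM, 10 of them had no more than 10 counts over all libraries together, and Hist2h2aa1 and Hist2h3c1 had a count of 0 in every library.

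RNA of the lumbar spinal cord was sequenced from 8 MFN2 mice and 4 WT mice, 30 days old and untreated, with 1 library per mouse. MFN2 mice, labelled CMT2A, were of the MitoCharc1 line (L51Ugfm/J), which carries Tg(Eno2-MFN2*R94Q) on a mixed B6;D2 background. They were hemizygous for a human MFN2 transgene with the R94Q change under the rat Eno2 promoter, which is active mainly in neurons, and they kept both copies of mouse Mfn2. The labels and the study give WT as C57BL/6, and the study's methods also call them littermates. The sex of the mice is not given in the sources used here. Libraries carry the numbers 41 to 43 (MFN2), 44 to 47 (WT) and 72 to 76 (MFN2), so that every WT library lies in the lower run of numbers, and genotype and run cannot be told apart in the higher run.

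Total counts ranged from 19359454 to 26738930 per library, and the histone genes together took between 0.0329% and 0.0531% of them. MFN2 library 43 stood apart before any histone gene was considered. The 8 forebrain genes of a marker list summed to 4674 CPM there and to between 108.3 and 206.9 CPM in the other libraries, while 6 Hox genes of the spinal cord summed to 36.1 CPM there and to at least 163.4 CPM elsewhere. Motor neuron markers (Chat, Isl1, Mnx1, Slc5a7, Prph) were detected in every library and summed to 29.4 CPM in library 43 against 126.5 to 306.4 CPM in the others. The comparisons below that include library 43 are therefore also given without it, where 15835 genes were tested.

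The stem-loop is the element that sets these mRNAs apart from others. The 16-base pattern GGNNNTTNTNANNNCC was searched on the sense strand of the GENCODE M21 transcripts (GRCm38). It was found in 46 of the 70 genes (65.7%) and in 3.57% of 55380 other genes. Within the last 100 bases of a transcript, where a histone mRNA without a tail would end, it was found in 23 histone genes (32.9%) and in 0.321% of the others. The stem paired perfectly in all 46 genes.

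The sequences below show the commonest form, the commonest form of the H4 genes, and the forms of the genes that the results turn on. Capitals mark the 16 bases of the stem-loop, and the strand follows the coordinates (GRCm38).
Hist1h1c, chr13:23739507-23739532, +: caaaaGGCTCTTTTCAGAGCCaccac
Hist1h1e, chr13:23621777-23621802, -: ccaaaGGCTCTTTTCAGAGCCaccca
Hist2h2ac, chr3:96220413-96220438, -: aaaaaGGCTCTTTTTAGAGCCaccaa
Hist3h2ba, chr11:58949344-58949369, +: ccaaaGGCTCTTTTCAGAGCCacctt
Hist1h3e, chr13:23561898-23561923, -: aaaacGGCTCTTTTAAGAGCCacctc
Hist1h4d, chr13:23581945-23581970, +: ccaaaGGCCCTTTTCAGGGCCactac
Hist1h4h, chr13:23531453-23531478, +: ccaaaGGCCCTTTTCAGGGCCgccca
Hist4h4, chr6:136803993-136804018, -: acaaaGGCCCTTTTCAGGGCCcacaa
The form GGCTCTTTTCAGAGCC was carried by 26 genes of the H1, H2A, H2B and H3 classes, and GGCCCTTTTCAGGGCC by 7 genes, all of class H4. Annotated transcripts ran on beyond the stem-loop to different lengths: 46 bases for Hist1h4h, 57 for Hist2h2ac, 840 for Hist1h1c and 2445 for Hist4h4. By this measure 23 genes had a short model (at most 100 bases behind the stem-loop), 23 had a long model, and 24 had no match in an annotated transcript, Hist2h2be and Hist1h2bc among them. A missing match says only that these letters are not in the transcripts searched.

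The counts of single members have a limit set by sequence. Of all 75-base windows (the read length) in a gene's transcripts, 32 members shared over 50% with another gene, 17 of them among the tested members, and 26 members overlapped exons of another gene. How the authors assigned reads with several matches, and whether strand was used, is not given in the sources used here. The levels of these members are therefore uncertain. Hist2h2be shared 0% of its windows and overlapped no other gene.

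Levels of single members were compared per length, as RPKM computed here from the deposited counts. Mean levels over the 12 libraries ran from 0.96 to 52.5 RPKM, and 13 of the 47 tested members lay above 10 RPKM. The linker histone genes Hist1h1c (52.5 ± 8.09 RPKM, SD, n = 12) and Hist1h1e (37.4 ± 5.19 RPKM) led, and they differed from each other by more than their SD. Next were the H4 genes Hist1h4d (35.9 ± 7.76 RPKM), which differed from Hist1h1e by less than the SD, Hist1h4h (28.7 ± 5.84 RPKM) and Hist1h4c (19.2 ± 4.0 RPKM). The H2B gene Hist3h2ba (18.7 ± 1.21 RPKM), the H2A gene Hist2h2ac (17.5 ± 5.47 RPKM) and the H2B gene Hist1h2bc (17.2 ± 2.74 RPKM) came after Hist1h4c, and among these 4, neighbours in the order differed by less than the larger SD. The leading H3 gene was Hist1h3e with 8.72 ± 1.63 RPKM. RPKM divides by the exon length of the annotated gene, so that a long model lowers the value of a gene whose reads come from a short mRNA.

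**Figure D1:**
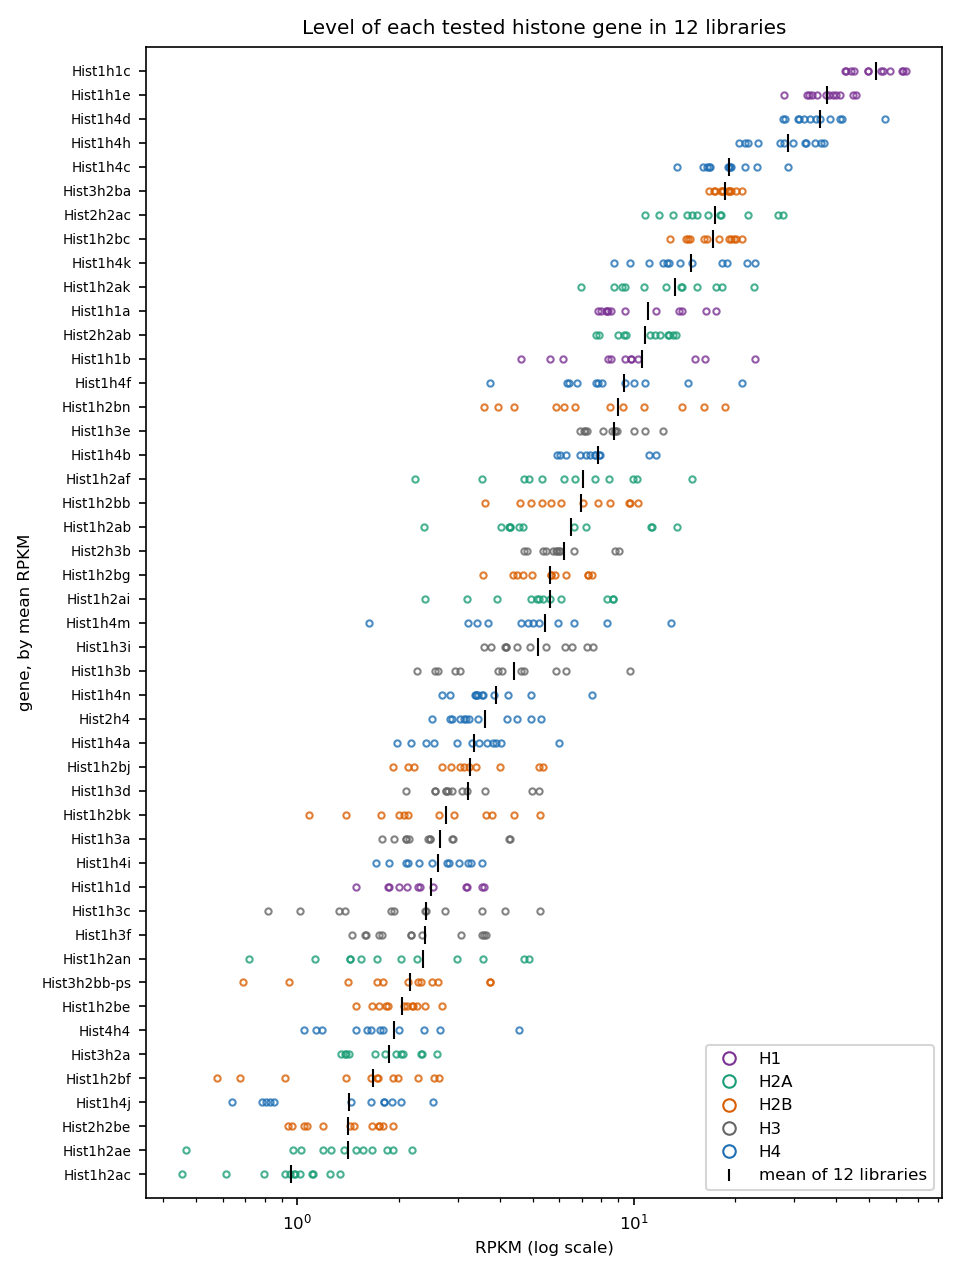
Level of each of the 47 tested histone genes in RPKM (log scale, x axis), with genes ordered by their mean on the y axis; open circles are the 12 libraries, coloured by histone class, and the black tick is the mean. Hist1h1c and Hist1h1e lie highest, Hist3h2ba has the tightest circles, and most other genes spread over more than a factor of 2.

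As a group, the histone genes differed from mouse to mouse more than from group to group. Their summed level was 528.1, 343.8, 414.3 and 409.2 CPM in WT libraries 44 to 47. It was 390.2, 357.7 and 456.1 CPM in MFN2 libraries 41 to 43, and 494.4, 471.8, 341.2, 371.3 and 403.3 CPM in MFN2 libraries 72 to 76. The groups overlapped throughout, with means of 423.8 ± 76.6 CPM in WT (SD, n = 4), 401.4 ± 50.1 CPM in MFN2 41 to 43 (n = 3; 374.0 ± 22.9 CPM without library 43) and 416.4 ± 65.2 CPM in MFN2 72 to 76 (n = 5). The highest sum, in WT library 44, was 1.55 times the lowest, in MFN2 library 74. Hist1h1c alone made up 19.7% of the sum and, together with Hist1h1e, 37.1%. In such bulk RNA, fewer cells that express a gene and less RNA per cell cannot be told apart.

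The members were also compared one by one. The level of each tested member was set against its own mean over the 12 libraries, on the log2(CPM + 0.5) scale. The median of these deviations over the 47 members was 0.47 in WT library 44, 0.38 in MFN2 library 43, 0.28 in MFN2 library 72 and 0.26 in MFN2 library 73, and it was -0.41 in WT library 45, -0.25 in MFN2 library 74, -0.20 in MFN2 library 41 and -0.18 in MFN2 library 42. The other 4 libraries lay between -0.10 and 0.03, and over all genes tested the median was within 0.02 of 0 in every library. Of the 47 members, 43 had their highest level in library 43, 44, 72 or 73, and 20 had their lowest in WT library 45. These libraries were picked by the medians of the same members, so the counts only describe them. The shares of all genes with their highest or lowest level there were not computed. In library 44, 45 of the 47 members lay above their own mean, against 3 of 47 in library 74. Of all 15942 genes tested, 8038 did so in library 44 and 7894 in library 74. High and low mice were thus found within WT and within MFN2 72 to 76, whereas in MFN2 41 to 43 the only high library was 43, with its forebrain genes.

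**Figure D2:**
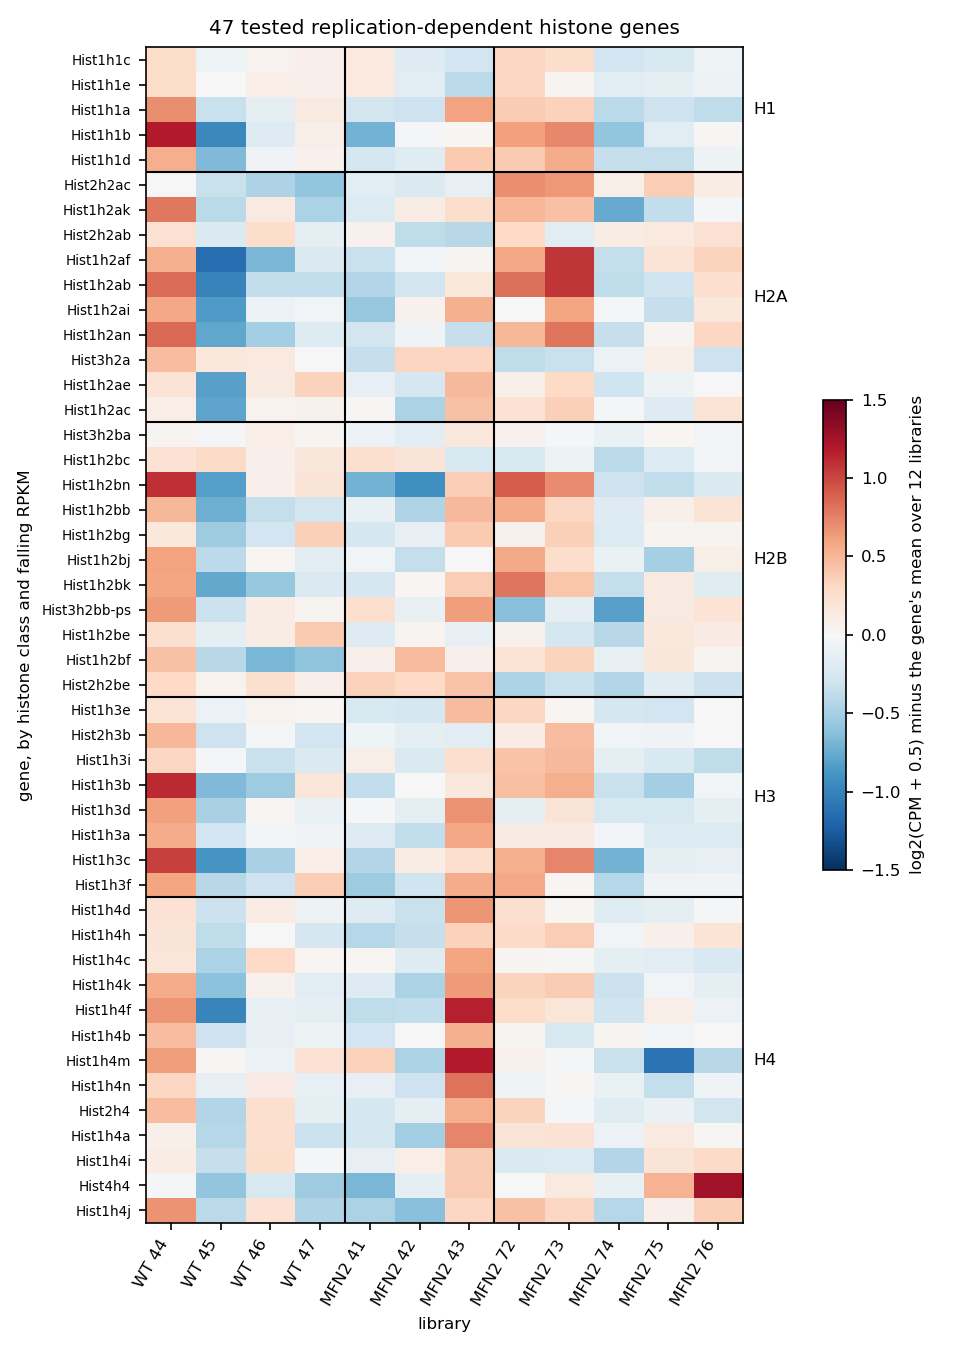
Deviation of each tested histone gene (rows, by class) from its own mean in each library (columns), in log2(CPM + 0.5), with red above and blue below the mean and black lines between groups and classes. Libraries 44, 43, 72 and 73 are red in most rows and library 45 is blue, and the H4 rows are reddest in library 43.

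H1 genes code for the linker histones that bind DNA between nucleosomes. Hist1h1c and Hist1h1e, both with long models, varied little: Hist1h1c was at 98.3, 77.2, 84.4 and 85.7 CPM in WT, at 89.8, 70.6 and 66.6 CPM in MFN2 41 to 43, and at 100.3, 97.4, 66.2, 68.9 and 77.6 CPM in MFN2 72 to 76. Library 43, high for the histone genes as a group, was the lowest of the 12 for Hist1h1e (54.0 CPM) and next to lowest for Hist1h1c. Hist1h1b, another linker histone gene, chosen for mention after its values were seen, varied 4.95-fold instead of 1.51-fold for Hist1h1c: it was at 16.98 CPM in WT library 44, at 11.3 and 12.1 CPM in MFN2 libraries 72 and 73, and at 3.43 to 7.65 CPM in the other libraries. No H1 gene was called in any comparison below.

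H2A and H2B genes code for the dimers on either side of the H3-H4 core of the nucleosome. Summed H2A levels ran from 24.2 CPM in WT library 45 to 52.5 CPM in MFN2 library 73, and summed H2B levels from 47.2 CPM in MFN2 library 74 to 75.99 CPM in WT library 44. Hist3h2ba was the steadiest member, from 10.3 to 12.8 CPM, a 1.25-fold range against a median range of 2.57-fold over the 47 members. The pseudogene Hist3h2bb-ps, of the same small cluster on chromosome 11, ran from 0.32 to 1.74 CPM, and the H2A gene Hist3h2a beside it from 2.89 to 5.57 CPM. For 36 of the 47 members the highest library was more than 2 times the lowest.

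H3 and H4 form the tetramer at the centre of the nucleosome. Summed H3 levels ran from 19.5 CPM in WT library 45 to 40.6 CPM in WT library 44. The H4 genes, of which all 13 passed the filter, had a different leader: their sum was 155.2 CPM in MFN2 library 43 and from 73.6 to 120.8 CPM in the other 11 libraries. In library 43 all 13 lay above their own mean, and 10 of them had their highest level there, against 3 of 8 H3, 3 of 11 H2B, 2 of 10 H2A and 0 of 5 H1 genes. Over all classes 38 of the 47 members lay above their own mean in library 43, against 7661 of all 15942 genes tested. The share of all genes with their highest level in library 43 was not computed, so those counts compare the histone classes only. The part of the forebrain genes of library 43 in these counts was not tested. Hist1h4d was at 63.6 CPM in library 43 and at 31.6 to 47.3 CPM elsewhere. Hist4h4, the only member on chromosome 6, had its own outlying mouse: it was at 13.0 CPM in MFN2 library 76, at 7.61 CPM in library 75 and at 3.01 to 6.83 CPM in the rest.

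Genes of S phase and proliferation were higher in 3 of the 4 libraries with the highest histone levels. Mki67, a marker of cycling cells, was at 78.6 CPM in WT library 44 and at 66.5 and 67.0 CPM in MFN2 libraries 72 and 73. It was at 12.2 to 29.2 CPM in the other libraries apart from library 43, where it was at 35.9 CPM. Top2a, which untangles DNA in dividing cells, was at 23.7, 15.2 and 16.9 CPM in libraries 44, 72 and 73 and at 5.17 to 12.03 CPM elsewhere, with library 43 at the upper end. Over the 31 proliferation genes tested, the median deviation was 0.39 in library 44, 0.16 in library 72 and 0.23 in library 73, with 30, 26 and 26 of 31 genes above their mean, but -0.10 in library 43, with 14 of 31. Library 43 therefore shared the high histone levels but not the proliferation genes as a list. Within the list, Rrm2, a subunit of ribonucleotide reductase, ran from 1.52 to 5.97 CPM with its peak in library 44, whereas Pcna, the DNA clamp of replication, ran from 14.02 to 20.2 CPM and Mcm2, of the replicative helicase, from 6.33 to 10.7 CPM. These libraries fall apart into a few high and many low ones, so that no correlation is given.

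**Figure D3:**
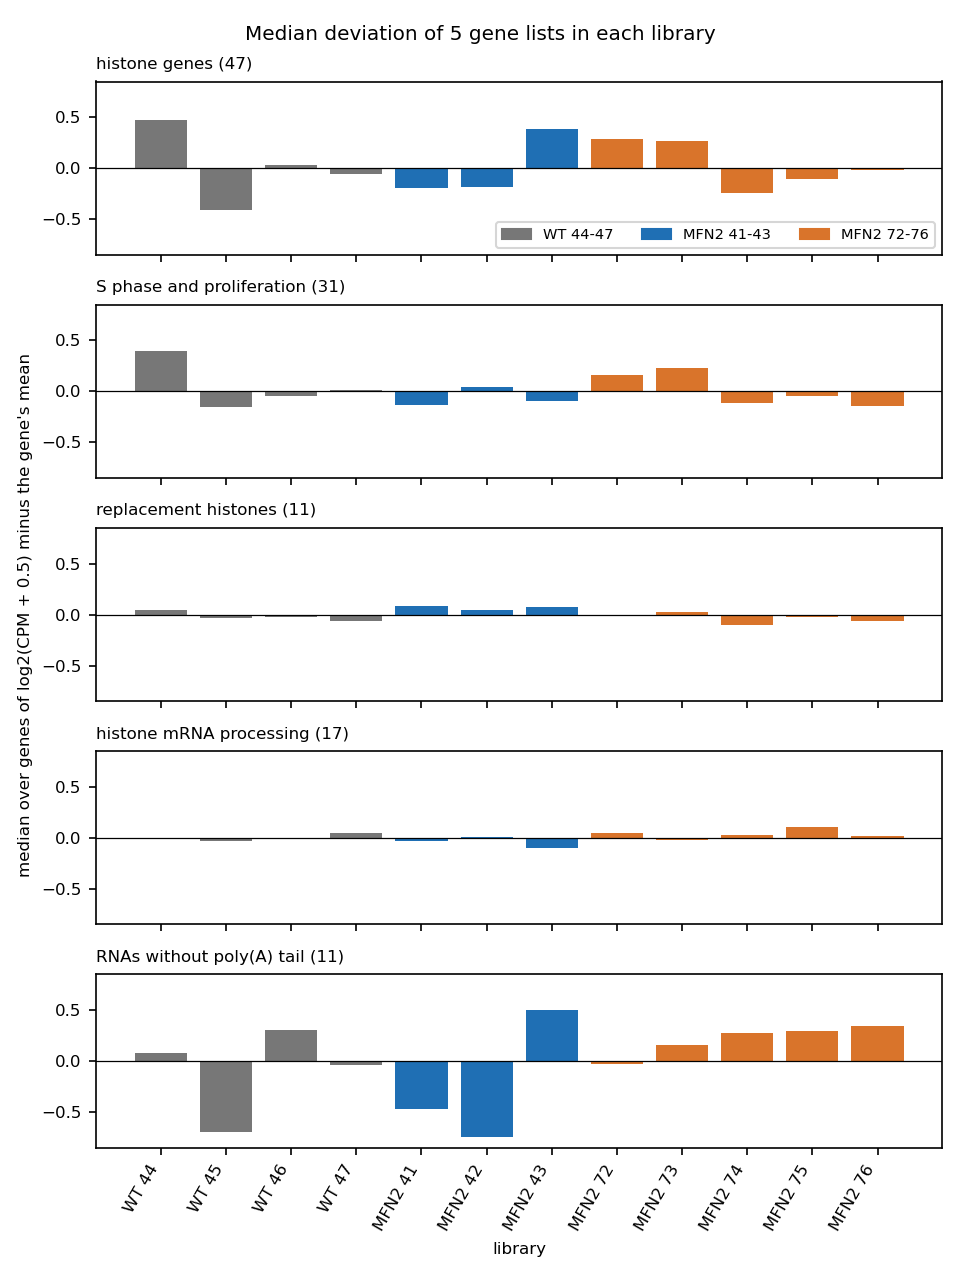
Median deviation from each gene's own mean, in log2(CPM + 0.5), for 5 gene lists (panels, number of tested genes in brackets) in each of the 12 libraries, coloured by group. Histone genes and proliferation genes are both high in libraries 44, 72 and 73, library 43 is high for the histone genes and for the RNAs without a poly(A) tail, and replacement histones and processing factors stay within 0.11 of 0.

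Replacement histones can be made outside S phase, as a rule from polyadenylated mRNA. The median deviation of the 11 genes lay between -0.10 and 0.09 in every library, against -0.41 to 0.47 for the replication-dependent genes. Their summed level ran from 427.7 to 510.8 CPM. The most abundant, H3f3b, which codes for the H3.3 variant, was at 120 to 134 CPM in WT, at 129 to 150 CPM in MFN2 41 to 43 and at 105 to 122 CPM in MFN2 72 to 76. H2afz was at 32.8 to 43.7 CPM, H2afx at 15.7 to 22.1 CPM, H2afy at 50.6 to 62.1 CPM, H2afy2 at 8.69 to 16.4 CPM and H2afj at 25.1 to 33.5 CPM over the 12 libraries. H3f3a was at 32.5 to 44.9 CPM and the linker variant H1f0 at 86.6 to 122 CPM. The centromeric variant Cenpa, which dividing cells need, was at 3.66 CPM in WT library 44 and at 0.85 to 2.43 CPM in the others.

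Of the factors that make and remove histone mRNA, 17 genes were tested, and their median deviation was at most 0.11 from 0 in any library. Single factors varied more. Slbp was at 21.3 to 36.1 CPM, lowest in library 43 and highest in library 72. Npat, the activator of histone gene transcription, was at 30.4 to 44.4 CPM, and Casp8ap2, which is needed for histone expression in S phase, at 23.2 to 32.4 CPM. The U7 ribonucleoprotein subunits Lsm10 and Lsm11 were at 1.20 to 3.88 CPM, highest in library 43, and at 32.1 to 52.9 CPM. Zfp473, a zinc finger protein that binds this ribonucleoprotein, was at 0.47 to 1.79 CPM, and Eri1, an exonuclease that trims histone mRNA ends, at 12.9 to 19.6 CPM.

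The first comparison set MFN2 libraries 72 to 76 against MFN2 libraries 41 to 43, where genotype is the same and the run of library numbers differs. The question it answers is whether the histone genes shifted between the runs. How much of the histone RNA counted here lacked a poly(A) tail was not tested. Of the 47 tested members, 1 was called by edgeR's quasi-likelihood test at a Benjamini-Hochberg FDR of 0.05, which is 2.13%, against 8.40% of all genes tested (1339 genes). The member was lower, as were 735 genes or 4.61% of those tested, with 604 genes higher. Scaling by library size alone turned this split to 862 higher and 518 lower, with 2 members called, 1 in each direction. The median log2 fold change of the members was 0.03, with 28 above 0 and 19 below, and over all genes it was 0.00. This balance rested on library 43: without it the median of the members was 0.31, with 37 above 0 and 10 below, and over all genes 0.01. It also moved with other libraries, to -0.13 without library 41 and to -0.21 without libraries 44, 72 and 73. The values of the 3 and 5 libraries did not overlap for 2 members that were higher and 1 that was lower, against 9.62% of all genes tested that were higher without overlap and 8.59% that were lower. Without library 43, 1 member was called higher and 2 lower, and 2217 genes were called in all, 1112 higher and 1105 lower. The libraries then did not overlap for 9 of the 47 members that were higher and 2 that were lower. Of all 15835 genes tested in that setting, 2834 were higher and 2613 lower without overlap.

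The member called was Hist2h2be, an H2B gene on chromosome 3 (96221119 to 96223738, + strand) that is known to give polyadenylated mRNA in differentiated cells. It was at 2.45, 2.75, 2.53, 3.13 and 2.80 CPM in MFN2 libraries 72 to 76, at 4.72, 4.57 and 5.05 CPM in MFN2 libraries 41 to 43, and at 4.57, 3.76, 4.38 and 3.85 CPM in WT. All 5 libraries of the higher run lay below all 7 of the lower run, and the WT libraries overlapped MFN2 41 to 43. The share of all genes that separate 5 from 7 libraries was not computed. Between libraries 72 to 76 and WT alone, 1629 of all 15942 genes tested were lower without overlap and 1504 higher. The log2 fold change between the runs was -0.81 (SE 0.13, adjusted p = 0.0076 by edgeR's quasi-likelihood test), and it was -0.76 (adjusted p = 0.0092) without library 43. The call rests on 55 to 124 counts per library. When libraries 44, 72 and 73, the highest in histone and proliferation genes, were left out together, the log2 fold change was -0.79 with an adjusted p of 0.067, and 41 genes were called in all.

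Its neighbour Hist2h2ac, an H2A gene on the opposite strand of chromosome 3 (96220361 to 96220880), went the other way. Between the annotated 5' ends of these genes lay 238 bases. Hist2h2ac was at 14.4, 13.96, 9.35, 11.4 and 9.46 CPM in MFN2 libraries 72 to 76, at 7.76, 7.47 and 8.004 CPM in MFN2 libraries 41 to 43, and at 8.67, 6.81, 6.19 and 5.62 CPM in WT. No library of the higher run overlapped the lower run here either, and the share of all genes with such a separation was again not computed. The log2 fold change between the runs was 0.60 (SE 0.18), and its adjusted p of 0.057 by edgeR's quasi-likelihood test did not pass the threshold. It passed with DESeq2 (adjusted p = 0.021), with scaling by library size alone (0.0499) and without WT library 44 (0.048). Libraries 72 and 73, the highest for Hist2h2ac, were also high for the proliferation genes, and the part of this in the difference was not tested. Hist2h2ac shared 34.5% of its read-length windows with other genes and overlapped the exons of Gm44492 on the other strand.

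**Figure D4:**
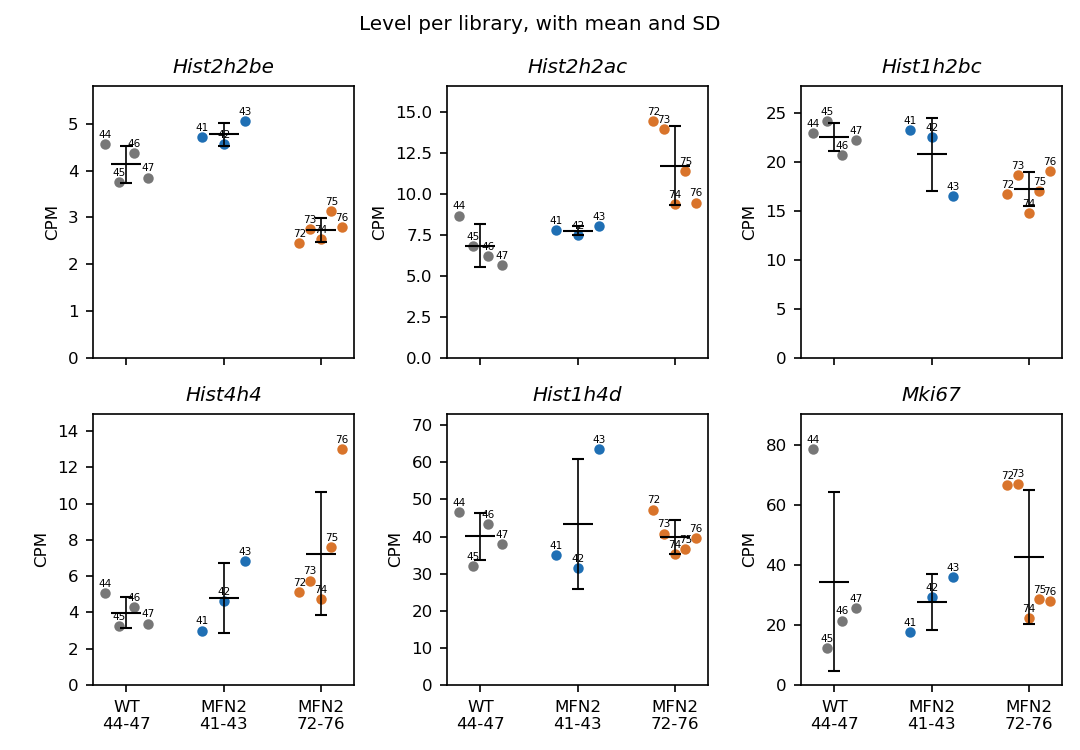
CPM per library (points, labelled by library number) of 5 histone genes and Mki67 in WT 44 to 47, MFN2 41 to 43 and MFN2 72 to 76, with the mean (bar) and SD (whiskers). Hist2h2be is lower and Hist2h2ac higher in all 5 libraries 72 to 76, Hist1h4d peaks in library 43, Hist4h4 in library 76, and Mki67 in libraries 44, 72 and 73.

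Other members moved less or with more spread. The H2B gene Hist1h2bc was at 16.7, 18.6, 14.8, 16.99 and 19.1 CPM in MFN2 72 to 76 and at 23.3, 22.5 and 16.5 CPM in MFN2 41 to 43, with 23.0, 24.2, 20.7 and 22.2 CPM in WT. Its groups overlapped only through library 43, and the log2 fold change of -0.27 (SE 0.12, adjusted p = 0.15 by edgeR's quasi-likelihood test) was -0.41 with an adjusted p of 0.016 without that library. Hist1h4h was at 16.2, 17.2, 12.8, 13.98 and 15.3 CPM against 9.67, 10.3 and 16.9 CPM, again with library 43 at the upper end. Its log2 fold change of 0.30 (adjusted p = 0.32) became 0.60 (adjusted p = 0.024) without library 43. The log2 fold changes of Hist4h4 (0.59, SE 0.35), Hist3h2a (-0.36, SE 0.20) and Hist1h4c (-0.28, SE 0.19) did not pass the test. Without library 43 they were 0.92, -0.24 and -0.02, and did not pass either. Hist1h4m, named after its values were seen, had the lowest value among the members (-1.01, SE 0.43, adjusted p = 0.14), shared 89.0% of its windows with other genes and passed the test only without library 42 (-1.38, adjusted p = 0.043). It was at -0.39 without library 43.

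**Figure D5:**
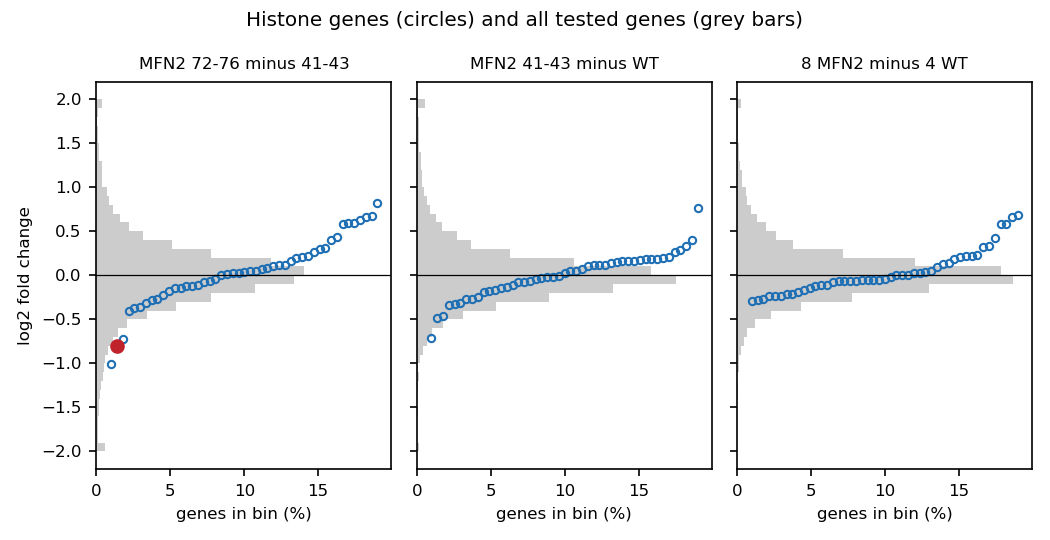
Log2 fold change (y axis) of the 47 histone genes (circles, ordered by value from left to right) in the 3 comparisons, beside the share of all 15942 tested genes in each bin of 0.1 (grey bars, x axis in percent; values past 2 are put in the end bins). The filled red circle is Hist2h2be, the member called, and the medians of the circles, -0.05 to 0.03 in the 3 panels with all libraries, lie close to 0.

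Of the 5 members listed as known sources of polyadenylated mRNA in differentiated cells (Hist1h1c, Hist1h2bc, Hist2h2be, Hist3h2a, Hist4h4), 1 (Hist2h2be) was called lower between the runs and 0 higher, with a median log2 fold change of -0.27, while 8.40% of all genes were called in either direction and 4.61% lower. Without library 43, Hist1h2bc was called lower as well, while 7.02% of all genes were called higher and 6.98% lower. Members with a short model had 0 of 14 called (median 0.18), those with a long model 0 of 19 (median 0.02) and those without a match 1 of 14 (median 0.03). The Hist1 cluster on chromosome 13 had 0 of 38 called and the Hist2 cluster on chromosome 3 had 1 of 5. The member called is Hist2h2be in each of these groups. Without library 43 the medians were 0.39 for a short model, 0.24 for a long model and 0.29 without a match, with 1 of 14, 0 of 19 and 2 of 14 called, against the 7.02% higher and 6.98% lower of all genes in that setting.

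Of 11 tested RNAs that lack a poly(A) tail for other reasons, 2 were called higher between the runs and 0 lower, against 3.79% of all genes higher and 4.61% lower. Their median log2 fold change was 0.47, with 8 above 0 and 3 below. Without library 43, 6 of the 11 were called higher (Rn7sk, Rn7s1, Rn7s2, Vaultrc5, Rny3 and Rnu11) and 0 lower, with a median of 1.37, against 7.02% of all genes higher and 6.98% lower. Whether they differed from the histone genes in this was not tested. Rn7sk, the 7SK RNA that holds back transcription elongation, was at 5075, 5470, 5258, 4863 and 5068 CPM in MFN2 72 to 76, at 2171, 2016 and 3774 CPM in MFN2 41 to 43 and at 2939, 1817, 3190 and 2244 CPM in WT. Its log2 fold change was 0.96 (SE 0.22, adjusted p = 0.026 by edgeR's quasi-likelihood test), and Rn7s2, of the signal recognition particle, rose by 1.66 (SE 0.42, adjusted p = 0.036) with levels of only 0.14 to 1.60 CPM over the 12 libraries. Rn7s2 has a near-identical copy, Rn7s1, so that its count is uncertain. Genes near the filter of 1 CPM can pass it through only the libraries where they are high. No conclusion is therefore drawn from the calls of Rn7s2, Rn7s1, Vaultrc5 and Rnu11. Rpph1, the RNA of ribonuclease P, did not pass the test (log2 fold change -0.45, adjusted p = 0.053), at 1171 to 1441 CPM in MFN2 72 to 76 against 1441 to 1957 CPM in MFN2 41 to 43. Rn7s1 (0.34 to 2.00 CPM), Vaultrc5 (0.50 to 3.75 CPM), Rny1 (4.38 to 24.9 CPM), Rny3 (6.32 to 37.7 CPM), Rnu11 (0.33 to 2.25 CPM), Scarna2 (19.4 to 34.3 CPM), Scarna6 (1.13 to 2.97 CPM) and Scarna13 (16.4 to 38.8 CPM) were not called with all libraries. The median deviation of these 11 RNAs was lowest in libraries 42 (-0.75), 45 (-0.69) and 41 (-0.47) and highest in library 43 (0.50). Libraries 41, 42 and 45 were also low for the histone genes and library 43 was high, whereas libraries 44 and 72, high for the histone genes, were at 0.07 and -0.03 here. Libraries 74, 75 and 76 went the other way, at -0.25, -0.10 and -0.02 for the histone genes and at 0.28, 0.29 and 0.34 for these RNAs.

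Among replacement histones 3 of 11 were called lower and 0 higher between the runs, against 4.61% and 3.79% of all genes. H2afv, an H2A.Z variant, was at 15.3 to 17.02 CPM in MFN2 72 to 76 and at 20.4 to 25.4 CPM in MFN2 41 to 43 (log2 fold change -0.51, SE 0.08, adjusted p = 0.0060 by edgeR's quasi-likelihood test). H3f3b (-0.35, adjusted p = 0.019) and the linker variant H1fx (-0.57, adjusted p = 0.032) were the others, and for all 3 the libraries of the runs did not overlap. H1fx was not called without library 43 (-0.42, adjusted p = 0.053 by edgeR's quasi-likelihood test). Of the 17 processing factors, Cstf2, a subunit of cleavage stimulation factor, was called higher (0.39, SE 0.07, adjusted p = 0.0091), at 131 to 137 CPM against 91.3 to 114 CPM, and 0 were called lower. Of the 31 proliferation genes 0 were called, with 2 at an unadjusted p under 0.05, and of 10 histone chaperones 0 were called, also with 2, whereas 28.7% of all genes had such a p. Without library 43, 0 proliferation genes and 2 chaperones (Nasp and Atrx, both higher) were called, against 7.02% of all genes higher and 6.98% lower.

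Some markers of other cell types were called between the same runs. Of the markers of motor neurons 0 of 5 were called, of oligodendrocytes 0 of 4, of endothelial cells 0 of 3 and of the 6 Hox genes 0, against 8.40% of all genes. All 5 motor neuron markers (median log2 fold change 0.74), all 4 oligodendrocyte markers (0.41) and all 6 Hox genes (0.52) nevertheless had values above 0. Without library 43 this held for 5, 3 and 4 of them, with medians of 0.25, 0.08 and 0.05. Of 7 forebrain genes tested 5 were called lower with all libraries and 0 without library 43, where 6.98% of all genes were called lower and 7.02% higher. All 4 microglia markers had log2 fold changes below 0 and 2 were called lower, Cx3cr1 (-0.70, adjusted p = 0.014 by edgeR's quasi-likelihood test) and Tmem119 (-0.87, adjusted p = 0.037). Without library 43, Cx3cr1 was called (-0.57, adjusted p = 0.012 by edgeR's quasi-likelihood test) and Tmem119 was not (-0.75, adjusted p = 0.052). Their sum was 72.5 to 89.5 CPM in MFN2 72 to 76, 140.8, 87.9 and 150.1 CPM in MFN2 41 to 43 and 91.5 to 122.3 CPM in WT, with Csf1r the most abundant. Of 5 markers of oligodendrocyte precursors and their lineage, which are no measure of dividing cells, Gpr17 was called higher, at 131 to 162 CPM against 93.6 to 121 CPM. Its log2 fold change was 0.47 (adjusted p = 0.034 by edgeR's quasi-likelihood test). The 5 markers were split, with 3 above 0 and 2 below and a median of 0.08. Without library 43, 2 were above 0 and 3 below, with a median of -0.09. Their sum, led by Olig1, was 426.5 to 492.4 CPM in MFN2 72 to 76, 330.6 to 478.3 CPM in MFN2 41 to 43 and 415.5 to 482.9 CPM in WT, and was 456.8, 429.4 and 469.1 CPM in libraries 44, 72 and 73. No marker of these lists was at 0 in any group. Their part in the histone levels was not tested.

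The second comparison set MFN2 libraries 41 to 43 against WT libraries 44 to 47, both genotypes within the lower run of numbers. Of the 47 members 0 were called by edgeR's quasi-likelihood test, against 0.0% of all genes tested, and 0 members had an unadjusted p under 0.05, against 2381 of all 15942 genes. DESeq2 and limma voom also called 0 members, with 49 and 0 genes in all. The median log2 fold change of the members was 0.03, from -0.71 to 0.77, with 24 above 0 and 23 below, and the libraries of the 2 groups overlapped for all 47, whereas 8.81% of all genes did not overlap. By class, 0 of 5 H1 genes and 11 of 13 H4 genes had a value above 0. The H4 count rested on library 43: without it 0 of 13 H4 genes and 0 of 5 H1 genes were above 0. Hist1h4c went from 0.15 to -0.12 and Hist1h4d from 0.12 to -0.26, with no call in either case. Hist2h2be (0.21, SE 0.14) and Hist2h2ac (0.18, SE 0.18) did not pass the test. Without library 43, 0 members were called by edgeR's quasi-likelihood test and 0 had an unadjusted p under 0.05. Their median was then -0.25, with 6 above 0 and 41 below, and over all genes it was -0.01. The libraries then did not overlap for 4 members, all lower, against 1188 of all 15835 genes that were lower without overlap and 1142 that were higher. Other lists lay below 0 in the same setting: 10 of the 11 other RNAs without a tail (median -0.71) and 22 of the 31 proliferation genes (median -0.17). With all libraries these medians were -0.04 and -0.18, that of the 7 forebrain genes was 3.68 and that of the 5 motor neuron markers -0.83, with 0 called in each list. The part of these in the histone values was not tested. Leaving out WT library 44 instead gave a median of 0.23, with 38 above 0 and 8 below.

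The third comparison set all 8 MFN2 libraries against the 4 WT libraries, with both runs together. Of the 47 members 0 were called by edgeR's quasi-likelihood test, against 0.0% of all genes tested, and 2 had an unadjusted p under 0.05, against 2386 of all 15942 genes. DESeq2 and limma voom called 0 members as well, with 200 and 0 genes in all. The groups overlapped for all 47 members, whereas 2.04% of all genes did not overlap. The 2 members were Hist2h2ac, with a log2 fold change of 0.58 (SE 0.20, adjusted p = 0.28), and Hist1h2bc, with -0.28 (SE 0.12, adjusted p = 0.30). Hist4h4 had 0.66 (SE 0.32, adjusted p = 0.35), with library 76 as its highest value, Hist3h2a -0.29 (SE 0.19, adjusted p = 0.45) and Hist2h2be -0.24 (SE 0.22, adjusted p = 0.59). The median over the members was -0.05, and over all genes 0.00. The median of the members was -0.08 without library 43, 0.22 without WT library 44 and -0.13 without WT library 45.

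When only MFN2 libraries 72 to 76 were set against WT, where run and genotype cannot be told apart, 2 of the 47 members were called, against 7.68% of all genes tested. They were Hist2h2ac (log2 fold change 0.78, SE 0.16, adjusted p = 0.017 by edgeR's quasi-likelihood test) and Hist2h2be (-0.60, SE 0.12, adjusted p = 0.015). This comparison shares its MFN2 libraries with the first and its WT libraries with the second. Leaving out WT library 46 left 0 members called (2.68% of all genes) and leaving out WT library 45 left 1 (2.41%). Leaving out MFN2 library 41 gave 3 members (9.58% of all genes), as did leaving out library 43 (22.9%), with Hist1h2bc added in both.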

How the data were processed

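RNA-seq of 12 lumbar spinal cords was used. Reads were aligned by the authors with STAR (GRCm38, GRCm38.p6 in the labels), and the deposited files hold raw counts for each Ensembl gene. The counting tool is not given in the sources used here. The labels name an mRNA-Seq kit, whereas the study's methods describe poly(A) sequencing with a total RNA kit. Genes above 1 CPM in at least 3 libraries entered the legacy quasi-likelihood test of edgeR 4.0.16 (R 4.3.3; TMM factors, robust option), with p-values adjusted by Benjamini-Hochberg over all 15942 genes at 0.05. Runs were contrasted in a fit with 3 groups, and all MFN2 with WT in a fit with 2 groups; p-values measure the spread between mice. Alternatives were other filters and scalings, DESeq2 1.42.0, limma 3.58.1 voom and leaving out libraries. Counts were simulated for all genes at a fixed dispersion of 0.05, and 15851 genes were tested. Apart from the genes changed, every simulated library had the same means. The simulation thus held no library like 43 and no other difference between runs. The shares recovered therefore do not give the power to see a change of the histone genes. For the contrast of runs, 62.4% of genes changed by 1 on the log2 scale were recovered. The share was 67.4% for MFN2 41 to 43 against WT and 91.7% for 8 MFN2 against 4 WT. Exon lengths, stem-loops and shared windows came from GENCODE M21. Members and lists were chosen with earlier results of these data known. Genes named were the members called, the most abundant overall and per class, the members of small clusters, the polyadenylated list, and preset genes of the other lists with those called; exceptions are marked in the text.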

Additional observations from a re-analysis of the deposited data

Results flagged for a closer look

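Gaps between the outermost mouse and its neighbour, as a share of the group's range, were checked in 42 groups of 8 MFN2 or 4 WT mice. The measures included named members, class sums, Mki67 and Top2a. Dixon's limits were 0.526 for 8 and 0.829 for 4 mice. Chance flags about 1 in 20 groups, or 2.10 here, and 5 were found. MFN2 library 43 stood far above the other MFN2 mice for Hist1h4c (0.734) and for the summed H4 genes (0.551), MFN2 library 76 far above them for Hist4h4 (0.54), and MFN2 library 74 far below them for the summed H2B genes (0.57). WT library 44 stood far above the other WT mice for Top2a (0.841). Their causes were not tested.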

How the results depend on the processing

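The counts of genes called depended on the choice of tool and libraries, and in some comparisons those of members did too. Between the runs, 2 members were called with DESeq2 (2536 genes in all) or library size scaling, 815 genes without a filter on low counts, 342 with only the libraries compared, and 0 members and 41 genes without libraries 44, 72 and 73 (chosen after seeing the data). Leaving out 1 library in turn gave 1 to 3 members and 458 to 2217 genes, lowest without library 75. For MFN2 41 to 43 against WT, 0 members were called in every alternative, with 49 genes by DESeq2, 1 with only the libraries compared, 3 without libraries 44, 72 and 73, and 0 to 1 when leaving out each library. For 8 MFN2 against 4 WT, 0 members were called in all alternatives except libraries 72 to 76 alone against WT (2 members, 1224 genes), with 200 genes by DESeq2 and 0 to 19 when leaving out each library, 19 without library 43. Without Hist1h1c the mean summed level was 337.4 CPM in WT, 331.1 in MFN2, 325.7 in MFN2 41 to 43 and 334.4 in MFN2 72 to 76. The median log2 fold change of the members changed sign with single libraries, from -0.13 to 0.31 between the runs and from -0.25 to 0.23 for MFN2 41 to 43 against WT. Of 567 recomputed values of the single-gene log2 fold changes given before this section for the 3 main comparisons, 45 lost the call, 11 gained it and 2 reversed, both for MFN2 41 to 43 against WT without library 43, Hist1h4c to -0.12 (up to 0.31 when leaving out each other library) and Hist1h4d to -0.26 (up to 0.30). When all 13 members named by rule are counted, also those with no such value given before, 5 reversed in that setting (the others were Hist4h4, 0.26 to -0.07, Hist3h2bb-ps, 0.17 to -0.12, and Hist1h2bc, -0.11 to 0.02), 3 reversed without library 43 between the runs and 1 for 8 MFN2 against 4 WT. The causes were not tested. Of the 21 counted members too low to test, 15 shared over 50% of their read-length windows with other genes, and the parts of depth and shared sequence were not tested. No paired analysis was made, because the sources used here do not say which mice shared a litter.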
